A study of Mus musculus with 6 samples.

Results

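The mitosis genes described here are a list of 45 genes whose products drive cells through mitosis, from entry to the final separation of the daughter cells, chosen by their known roles and found on the array by gene name. Of the 45, 44 were named on the array, with Cdk1 under its older name Cdc2a, out of 27574 gene names in all. All 44 were tested among 16473 genes, and all 44 were well above background on every array. Ndc80 was present under an older name and was found through its RefSeq accession. It is given apart and is not in any count. The cells were primary keratinocytes from the epidermis of newborn wild-type mice, which had been infected at 10 viral particles per cell to express v-ras-Ha, an activated Ras oncogene. In 3 cultures Anakinra, the drug form of the natural blocker of the interleukin-1 receptor, was present at 5 ug/ml from 5 hours after infection, and 3 cultures had PBS instead. The oncogene was thus present in both groups. The antagonist was replaced after 2 days, RNA was taken after 3 days, and total RNA of each culture was measured on 1 one-colour Agilent array. Hair follicle buds were isolated along with the keratinocytes. Nothing in the labels ties a replicate to an animal, so the p-values cover the spread among 6 cultures, part or all of which may be technical. The comparison asks what blocking the interleukin-1 receptor does to transcripts of keratinocytes that carry the oncogene.

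Cells enter mitosis when the kinase Cdk1, bound to a cyclin, is switched on by phosphatases of the Cdc25 family. The chromosomes are condensed, the kinetochores attach to spindle microtubules, and a checkpoint holds back the anaphase-promoting complex until all are attached. That complex then marks securin and the cyclins for destruction, and the cell divides. Transcripts of these genes accumulate late in the cell cycle and are low in resting cells, so that their level in a culture moves with the share of dividing cells. In the epidermis between hair follicles, dividing keratinocytes lie mainly in the basal layer and stop dividing as they differentiate.

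None of the 44 mitosis genes passed the test for a difference between Anakinra and PBS (limma, smallest adjusted p = 0.104). Over all genes 1.77% passed, 0.971% higher and 0.801% lower. The log2 changes, Anakinra minus PBS, ran from -0.41 to 0.18 with a median of -0.11, against a median of 0.01 over all genes tested. A change of -1 on this scale would be a halving, and the 95% interval of the change lay between -1 and 1 for all 44, as it did for 77.0% of all genes. It lay between -0.5 and 0.5 for 38 of the 44 and for 51.2% of all genes. These intervals are not adjusted for the number of genes.

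The sign of the small differences was uneven. Of the 44 genes, 33 had a negative change, or 75%, against 47.7% of all genes. All 3 Anakinra values lay below all 3 PBS values in 12 genes, or 27.3%, against 13.8% of all genes, and all 3 lay above in 0, against 12.5% of all genes. An unadjusted p under 0.05 was found for 6 genes with a negative change, where 7.62% of all genes had one, and for 0 with a positive change, where 8.50% of all genes had one. The shares came close to those of all genes when Anakinra 2 was left out. Without that array 28 of the 44 genes were negative, or 63.6%, against 59.1% of all genes. All Anakinra values then lay below all PBS values in 12 genes, or 27.3%, against 26.4% of all genes. They lay above in 4 genes, and the share of all genes for that is not given here. Without Anakinra 1 instead, 34 of the 44 were negative, or 77.3%, against 42.9% of all genes. Without Anakinra 3, 39 were negative, or 88.6%, against 42.7% of all genes. In that setting all Anakinra values lay below all PBS values in 22 of the 44, against 16.9% of all genes. These genes vary together from array to array, so that the counts are not 44 separate observations. In bulk RNA fewer dividing cells and less of these RNAs per cell cannot be told apart. The 6 arrays lay on 2 slides, with Anakinra 1, PBS 2 and PBS 3 on slide 1 and Anakinra 2, Anakinra 3 and PBS 1 on slide 2. The median change was -0.07 within slide 1, against -0.04 over all genes there, and -0.11 within slide 2, against 0.09 over all genes there. The mitosis genes thus differed from the median of all genes by -0.03 on slide 1 and by -0.20 on slide 2. With each array's median in place of its 75th percentile as the scale, the median of all genes moved to -0.32 and that of the mitosis genes to -0.44. All 44 then had a negative change, as had 86.5% of all genes, and 0 had all Anakinra values below all PBS values, against 3.93% of all genes. Relative to the median of all genes the mitosis genes were at -0.12 with either scale. This could not have differed, since a change of scale moves every gene by the same amount.

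**Figure D1:**
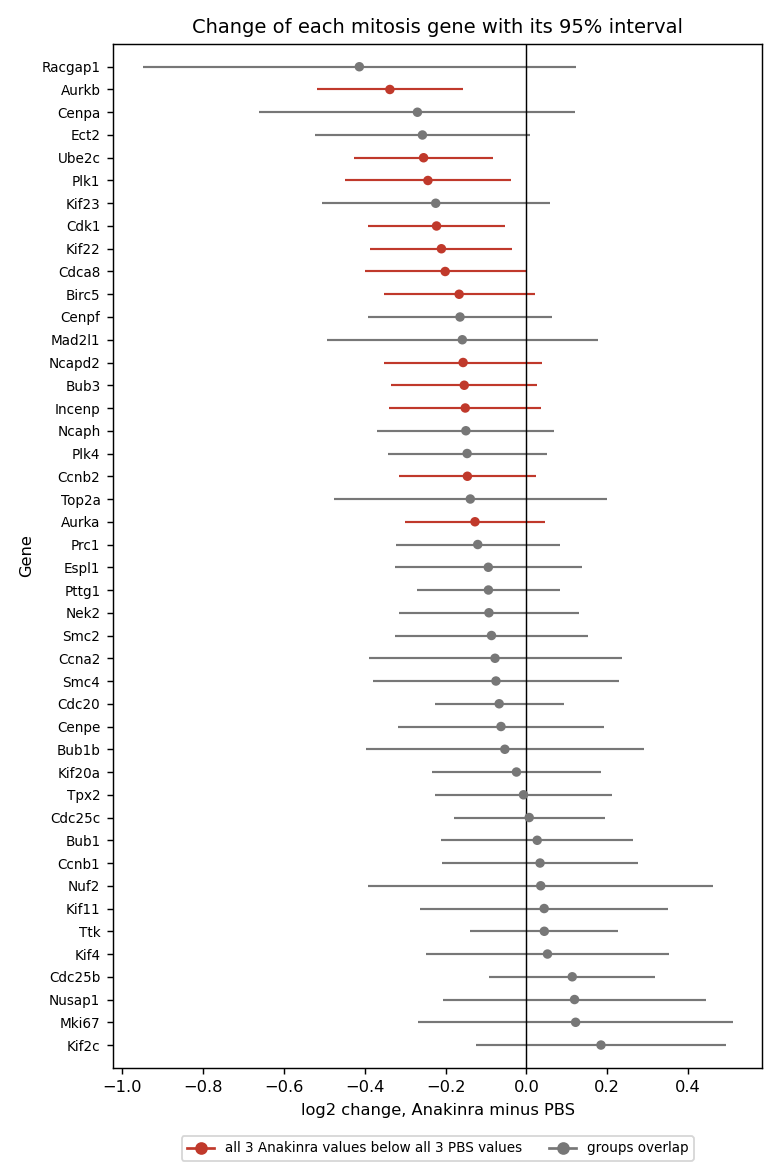
Each point is the log2 change of 1 mitosis gene, Anakinra minus PBS, and each line its 95% interval from limma (n = 3 arrays per group). The 12 genes in red, whose Anakinra values all lay below the PBS values, fill most of the upper part of the plot. The most negative change, Racgap1 at -0.41 in the top row, has the widest interval.

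A sequence feature that had no part in choosing the genes was frequent among them. Many genes of late cell cycle carry near their start a short element, the cell cycle genes homology region (CHR), which the MuvB protein complex binds, together with CCAAT boxes, which are bound by NF-Y. Windows of 300 bases, with 250 before and 50 after the gene start, were available from RefSeq (build GRCm38.p6) for 37 of the 44 genes. On either strand, the CHR form TTTGAA was found in 25 of the 37, or 67.6%, against 12.1% of the 11160 tested genes with a window. The form TTCGAA was found in 4, or 10.8%, against 2.08%. A CCAAT box was present in 29 of the 37, or 78.4%, against 38.5%, and 19 had at least 2 of them, or 51.4%, against 14.4%. A CHR form and a CCAAT box stood together in 26 windows, or 70.3%, against 5.91%. Matches of different motifs shared bases in 1 pair (Cdca8). In 24 of the 27 genes with a CHR form, 1 began within 50 bases of the start. A match is a run of letters and not a shown binding site.

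The 150 bases before the start are given for the 4 genes with the smallest p among those with a window, Ube2c, Cdk1, Kif22 and Plk1, and for Ccnb1 and Cdc20, whose changes were close to 0, with capitals marking CHR forms, CCAAT boxes and, in Cdk1, an E2F-like match.
Ube2c: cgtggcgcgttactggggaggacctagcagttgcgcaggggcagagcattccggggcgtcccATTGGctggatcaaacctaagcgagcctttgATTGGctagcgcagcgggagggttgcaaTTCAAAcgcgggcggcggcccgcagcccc
Cdk1: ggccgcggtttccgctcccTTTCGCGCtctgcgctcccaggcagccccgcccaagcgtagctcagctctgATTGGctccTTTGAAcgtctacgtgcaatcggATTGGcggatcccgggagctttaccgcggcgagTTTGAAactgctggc
Kif22: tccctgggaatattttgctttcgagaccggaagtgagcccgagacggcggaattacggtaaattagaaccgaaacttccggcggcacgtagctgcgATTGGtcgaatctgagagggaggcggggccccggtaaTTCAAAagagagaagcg
Plk1: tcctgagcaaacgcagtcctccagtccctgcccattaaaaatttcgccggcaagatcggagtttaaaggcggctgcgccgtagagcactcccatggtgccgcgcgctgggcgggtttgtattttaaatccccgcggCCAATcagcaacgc
Ccnb1: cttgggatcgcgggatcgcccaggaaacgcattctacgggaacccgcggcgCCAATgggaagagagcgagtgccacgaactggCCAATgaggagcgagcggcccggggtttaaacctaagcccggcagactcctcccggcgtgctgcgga
Cdc20: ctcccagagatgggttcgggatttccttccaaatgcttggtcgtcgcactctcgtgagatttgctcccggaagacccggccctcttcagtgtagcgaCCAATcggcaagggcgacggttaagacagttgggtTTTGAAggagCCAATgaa
They lie at chr2:164769779-164769928 on the plus strand for Ube2c, chr10:69352913-69353062 on the minus strand for Cdk1, chr7:127042421-127042570 on the minus strand for Kif22, chr7:122159285-122159434 on the plus strand for Plk1, chr13:100786487-100786636 on the minus strand for Ccnb1 and chr4:118437344-118437493 on the minus strand for Cdc20, each written 5′ to 3′ on the strand of the gene. Cdk1 has 2 CHR forms here, of which the nearer begins 15 bases before the start. In Ube2c and Kif22 the CHR is read on the opposite strand, as TTCAAA. Plk1 has its CHR after the start, from base 31, outside the printed stretch, and Ccnb1 has 2 CCAAT boxes and no CHR form of these letters in its window. Changes with and without the element overlapped. The median change was -0.14 over the 27 genes with a CHR form, where 20 were negative, and -0.09 over the 10 with none, where 7 were negative; the difference was not tested.

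**Figure D2:**
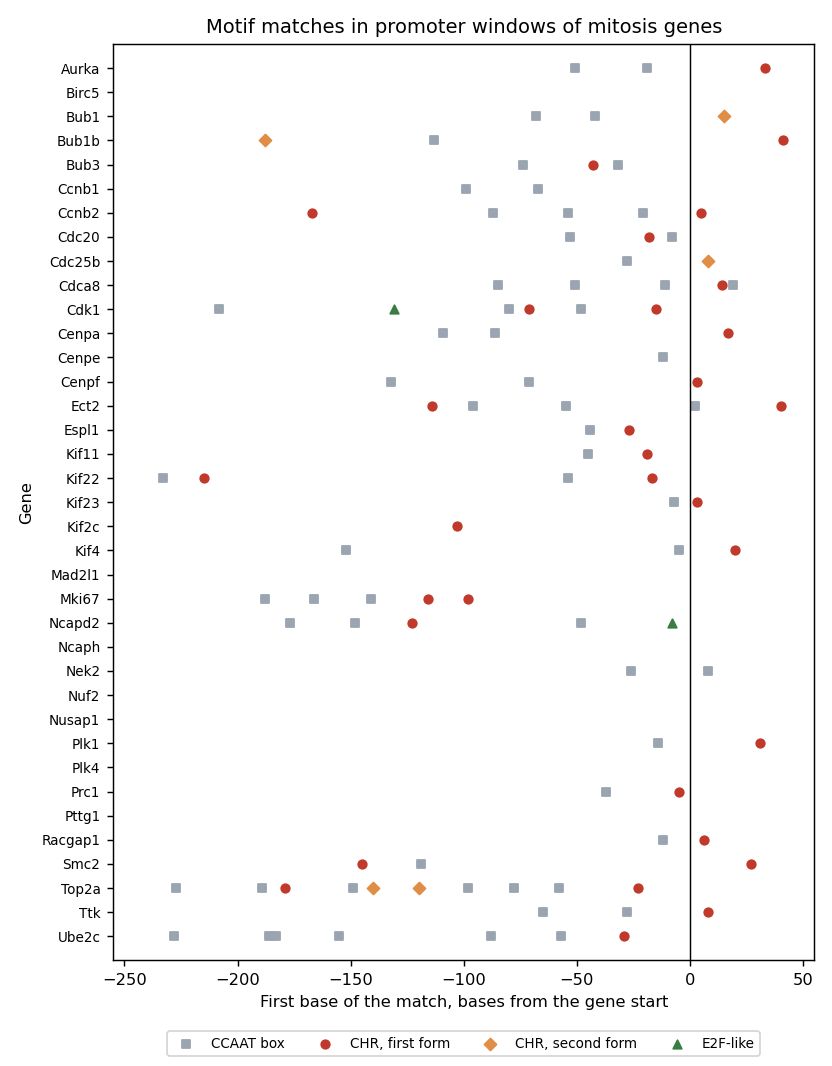
Positions of motif matches, on either strand, in the RefSeq promoter windows of 37 mitosis genes, in bases from the gene start (the vertical line). Circles and diamonds are the CHR forms TTTGAA and TTCGAA, of which most lie close to the start, and squares are CCAAT boxes, most of which lie upstream.

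The values below are levels on a log2 scale relative to the 75th percentile of the same array, so that 0 is the level of that percentile. The chromosomal passenger complex corrects wrong attachments of chromosomes and then moves to the midzone for cytokinesis. All 4 of its genes had Anakinra values below all PBS values, as had 13.8% of all genes. The same was found in 71.4% of the DNA replication genes described below. Aurkb, the kinase of the complex, had levels of 0.51, 0.62 and 0.53 in Anakinra cultures 1, 2 and 3, against 0.94, 0.93 and 0.81 in PBS cultures 1, 2 and 3. The Anakinra values were all lower, with a gap wider than the range of either group, and Aurkb had the smallest p of the 44 genes. Its log2 change was -0.34 ± 0.07 (SE, n = 3 per group, limma adjusted p = 0.104), or 1.26-fold, and it was -0.36 within each slide. The adjusted p was 0.0376 where the prior spread followed the signal level, and ran from there to 0.999 over the alternatives tried.

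The other 3 members of that complex had smaller differences. Cdca8, or borealin, had 3.48, 3.32 and 3.29 in Anakinra, against 3.60, 3.51 and 3.60 in PBS, and a change of -0.20 ± 0.08 (limma adjusted p = 0.307). A dimmer probe of Cdca8 gave -0.32. Birc5, the survivin gene, had 4.13, 4.22 and 4.05 in Anakinra, against 4.36, 4.27 and 4.26 in PBS, and a change of -0.17 ± 0.07 (limma adjusted p = 0.360). Its groups were parted by only 0.04. Incenp, the scaffold of the complex, had 3.30, 3.28 and 3.20 in Anakinra, against 3.51, 3.33 and 3.40 in PBS, and a change of -0.15 ± 0.07 (limma adjusted p = 0.405). For Cdca8 and Incenp the change was -0.07 and -0.06 within slide 1, and -0.29 and -0.27 within slide 2.

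Among Cdk1, its cyclins and its phosphatases, the kinase gene differed most. Cdk1 had levels of 3.04, 2.96 and 2.91 in Anakinra, against 3.14, 3.22 and 3.22 in PBS. The groups did not overlap, and the change was -0.22 ± 0.07 (limma adjusted p = 0.208), with -0.18 within slide 1 and -0.21 within slide 2. A second, far dimmer probe of Cdk1 had -4.98, -3.86 and -4.99 in Anakinra, against -5.09, -5.21 and -4.72 in PBS, and with the mean of both probes the gene was at 0.09. Ccnb2, a cyclin partner of Cdk1, had 3.07, 3.19 and 3.15 in Anakinra, against 3.34, 3.23 and 3.27 in PBS, with a change of -0.15 ± 0.07 (limma adjusted p = 0.374). Its sister gene Ccnb1 had 2.37, 2.19 and 2.45 in Anakinra, against 2.21, 2.32 and 2.39 in PBS. The groups overlapped, at 0.03 ± 0.10 (limma adjusted p = 0.920), and all 3 of its probes were between 0.01 and 0.04. Ccna2, the cyclin of S phase and early mitosis, was at -0.08 ± 0.12, and the activating phosphatases Cdc25b and Cdc25c were at 0.11 ± 0.08 and 0.01 ± 0.07.

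**Figure D3:**
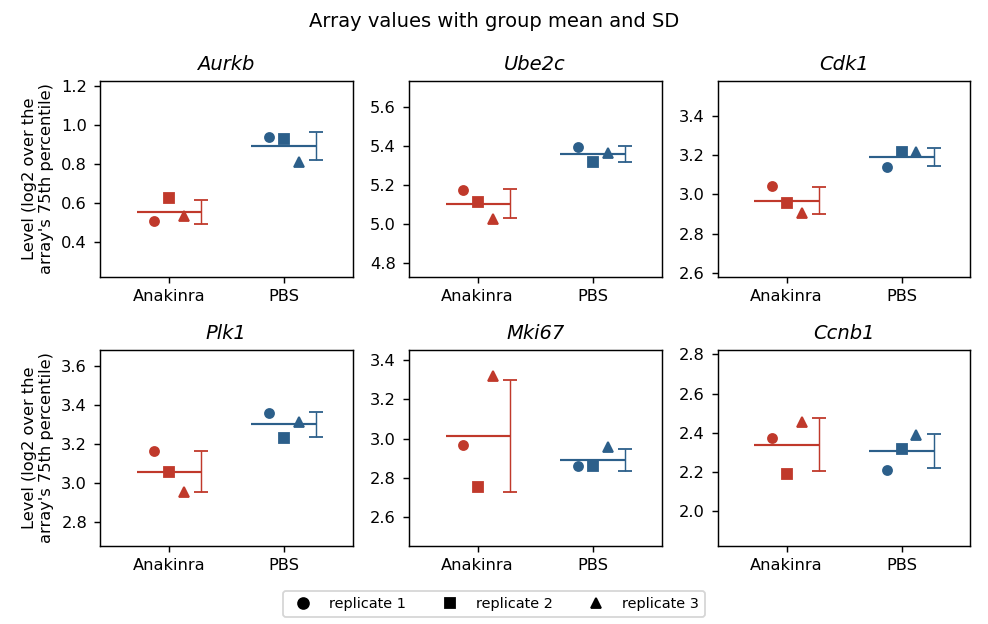
Levels of 6 mitosis genes on each array (log2 over the array's 75th percentile), Anakinra left and PBS right, with the replicate shown by the symbol, the mean by a horizontal line and the SD by a bar (n = 3 per group); every panel spans the same range. Aurkb, Ube2c, Cdk1 and Plk1 have groups that do not overlap, while in Mki67 and Ccnb1 they do.

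The kinase genes Aurka, Plk1, Plk4 and Nek2, which act at centrosomes and along the spindle, had negative changes. Plk1, which acts at the centrosomes, kinetochores and midzone, had 3.16, 3.06 and 2.95 in Anakinra, against 3.36, 3.23 and 3.31 in PBS. The groups did not overlap, and the change was -0.24 ± 0.08 (limma adjusted p = 0.243). It was -0.11 within slide 1 and -0.35 within slide 2. Aurka, the centrosomal Aurora kinase, was at -0.13 ± 0.07 with groups parted by 0.02. Plk4, which starts centriole duplication, was at -0.15 ± 0.08 and Nek2, which parts the centrosomes, at -0.09 ± 0.09, each with overlapping groups. A dimmer passing probe of Plk4 was at -0.39, and there all Anakinra values lay below all PBS values.

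Around the anaphase-promoting complex, the ubiquitin-conjugating enzyme gene Ube2c stood out. It had 5.17, 5.11 and 5.03 in Anakinra, against 5.40, 5.32 and 5.36 in PBS. All Anakinra values were lower, and the change was -0.25 ± 0.07 (limma adjusted p = 0.165), or 1.19-fold, with -0.17 within slide 1 and -0.33 within slide 2. The activator gene Cdc20 was at -0.07 ± 0.06, the securin gene Pttg1 at -0.09 ± 0.07 and the separase gene Espl1, whose product cuts the cohesin that holds sister chromatids together, at -0.09 ± 0.09. Of 13 genes for core subunits of the complex, 0 passed in either direction, and the median was -0.03. Of these 13, 8 were negative, or 61.5%, against 47.7% of all genes.

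In the spindle checkpoint 3 of 5 genes were negative. Bub3, whose product carries the Bub1 and BubR1 proteins to kinetochores, had 4.84, 4.74 and 4.66 in Anakinra, against 4.92, 4.88 and 4.91 in PBS, a change of -0.15 ± 0.07 (limma adjusted p = 0.377) with groups that did not overlap. Its other passing probes were at 0.02 and 0.61, the last one dim on every array, and with the mean of the passing probes the gene was at 0.16. Mad2l1, which inhibits Cdc20, was at -0.16 ± 0.13, Bub1b, the BubR1 gene, at -0.05 ± 0.14, and the kinase genes Bub1 and Ttk at 0.03 ± 0.09 and 0.04 ± 0.07. At the kinetochore, the centromeric histone gene Cenpa had 2.11, 1.63 and 1.67 in Anakinra, against 1.94, 2.10 and 2.17 in PBS. Anakinra 1 lay among the PBS values and the other Anakinra cultures lay below them, which gave -0.27 ± 0.16 (limma adjusted p = 0.472). It was -0.03 within slide 1 and -0.29 within slide 2. Cenpf was at -0.16 ± 0.09, the motor gene Cenpe at -0.06 ± 0.10 and Nuf2, a microtubule-binding subunit of the Ndc80 complex, at 0.04 ± 0.17. Ndc80 itself was at -0.06 ± 0.08 (limma adjusted p = 0.775).

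Of the 6 spindle motors and microtubule factors 4 had a positive change. Kif2c, which takes microtubules apart at centromeres, had the highest change of the 44, with -0.61, -0.29 and -0.50 in Anakinra, against -0.62, -0.81 and -0.52 in PBS. The groups overlapped, at 0.18 ± 0.12 (limma adjusted p = 0.538). The change was 0.06 within slide 1 and 0.23 within slide 2. With 1 sample left out it ran from 0.10 without Anakinra 2 to 0.26 without Anakinra 1, and it was 0.10 without PBS 2. Nusap1, which bundles spindle microtubules, had 1.772, 1.496 and 1.858 in Anakinra, against 1.441, 1.615 and 1.714 in PBS, and was at 0.12 ± 0.13 (limma adjusted p = 0.717). It was at 0.04 without Anakinra 3, at 0.04 without PBS 1 and at 0.23 without Anakinra 2. Kif4 and Kif11, motors of chromosome arms and of the bipolar spindle, were at 0.05 ± 0.12 and 0.04 ± 0.12, and Tpx2, which activates Aurora A, at -0.01 ± 0.09. Kif22, a motor that moves chromosome arms away from the poles, went the other way, with 3.041, 2.943 and 3.095 in Anakinra, against 3.277, 3.190 and 3.243 in PBS. Its groups did not overlap, and the change was -0.21 ± 0.07 (limma adjusted p = 0.239), with -0.18 within slide 1 and -0.26 within slide 2.

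All 5 genes of the midzone and cytokinesis had a negative change, and by their brightest probes all 5 had overlapping groups. Dimmer passing probes of Ect2 and Kif23 were at -0.43 and -0.27, each with all Anakinra values below all PBS values. The second probes of Racgap1 and Kif20a had overlapping groups. Racgap1, part of the centralspindlin complex, had 0.32, 0.19 and -0.41 in Anakinra, against 0.50, 0.30 and 0.54 in PBS, a change of -0.41 ± 0.21 (limma adjusted p = 0.422). Without Anakinra 3 the change was -0.19, and a second probe gave -0.14. It was -0.10 within slide 1 and -0.61 within slide 2. Ect2, which switches on RhoA at the cleavage furrow, had 1.76, 1.78 and 2.04 in Anakinra, against 2.20, 2.13 and 2.01 in PBS, a change of -0.26 ± 0.11 (limma adjusted p = 0.327), and here Anakinra 3 lay within the PBS values. Kif23, the motor of centralspindlin, was at -0.22 ± 0.11, Prc1, which bundles midzone microtubules, at -0.12 ± 0.08 and Kif20a at -0.02 ± 0.08. The 5 chromosome condensation genes were negative too. The condensin gene Ncapd2 had 2.34, 2.22 and 2.31 in Anakinra, against 2.54, 2.36 and 2.44 in PBS, a change of -0.16 ± 0.08 (limma adjusted p = 0.405), with groups parted by 0.02. A second Ncapd2 probe was at 0.02 with overlapping groups, and the mean of both probes gave -0.07. Ncaph, Smc4 and Smc2 were at -0.15 ± 0.09, -0.08 ± 0.12 and -0.09 ± 0.09. Top2a, the topoisomerase that untangles chromosomes, had 1.95, 1.81 and 2.26 in Anakinra, against 2.21, 2.04 and 2.18 in PBS, and was at -0.14 ± 0.13 (limma adjusted p = 0.677). A dimmer probe of Top2a had -1.49, -1.71 and -1.88 in Anakinra, against -1.08, -1.22 and -1.16 in PBS, so that its groups did not overlap and those of the brighter probe did. The change of the brighter probe was -0.27 without Anakinra 3 and -0.04 without Anakinra 2.

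Mki67, the gene of the Ki-67 protein that coats mitotic chromosomes and marks dividing cells in tissue, did not share the sign of most. It had 2.97, 2.75 and 3.32 in Anakinra, against 2.86, 2.86 and 2.95 in PBS. Anakinra 3 was the highest and Anakinra 2 the lowest of the 6 arrays, and the change was 0.12 ± 0.15 (limma adjusted p = 0.772). A second probe had the same order of the Anakinra cultures, with 1.84, 1.55 and 2.14. Without Anakinra 3 the change of Mki67 was -0.03, and without Anakinra 2 it was 0.25.

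Of the 44 genes 22 had several passing probes, and in 9 of these the probes differed in sign; they were Cdk1, Bub3, Ncapd2, Cdc25b, Cdc25c, Cenpe, Cenpf, Smc2 and Smc4.

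That split between the Anakinra cultures ran through the list. Anakinra 2 was the lowest of the 6 arrays in 24 of the 44 genes, or 54.5%, against 12.7% of all genes, and it lay below every PBS array in 35 of the 44, against 28.2% of all genes. Anakinra 3 was the highest of the 6 arrays in 16 genes, or 36.4%, against 20.1% of all genes, and the lowest in 10, or 22.7%, against 33.6% of all genes. By their brightest probes, genes high in Anakinra 3 included Mki67, Top2a, Bub1, Kif11 and Kif4. A dimmer passing probe of Top2a was lowest in Anakinra 3, at -1.88, and a dim passing probe of Kif11 was not highest there. Aurkb, Plk1, Ube2c, Cdk1 and Racgap1 were among the 17 of 44 that lay below every PBS array in Anakinra 3, where 44.6% of all genes did. The median over the 44 genes of the deviation from each gene's mean of the 6 arrays was -0.02, -0.13 and 0.03 in Anakinra 1, 2 and 3, against 0.05, 0.03 and 0.07 in PBS 1, 2 and 3. The median change was -0.14 without Anakinra 3, against 0.04 over all genes, and -0.08 without Anakinra 2, against -0.06 over all genes. Anakinra 2 also stood apart as an array. It had 86.5% of spots well above background, against 55.6% to 71.0% on the other arrays, and was the highest of the 6 arrays in 35.8% of all genes. The weights that limma estimated were 0.75, 0.29 and 0.52 for Anakinra 1, 2 and 3, against 1.31, 3.42 and 1.98 for PBS 1, 2 and 3. The part of array quality in the split was not tested.

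**Figure D4:**
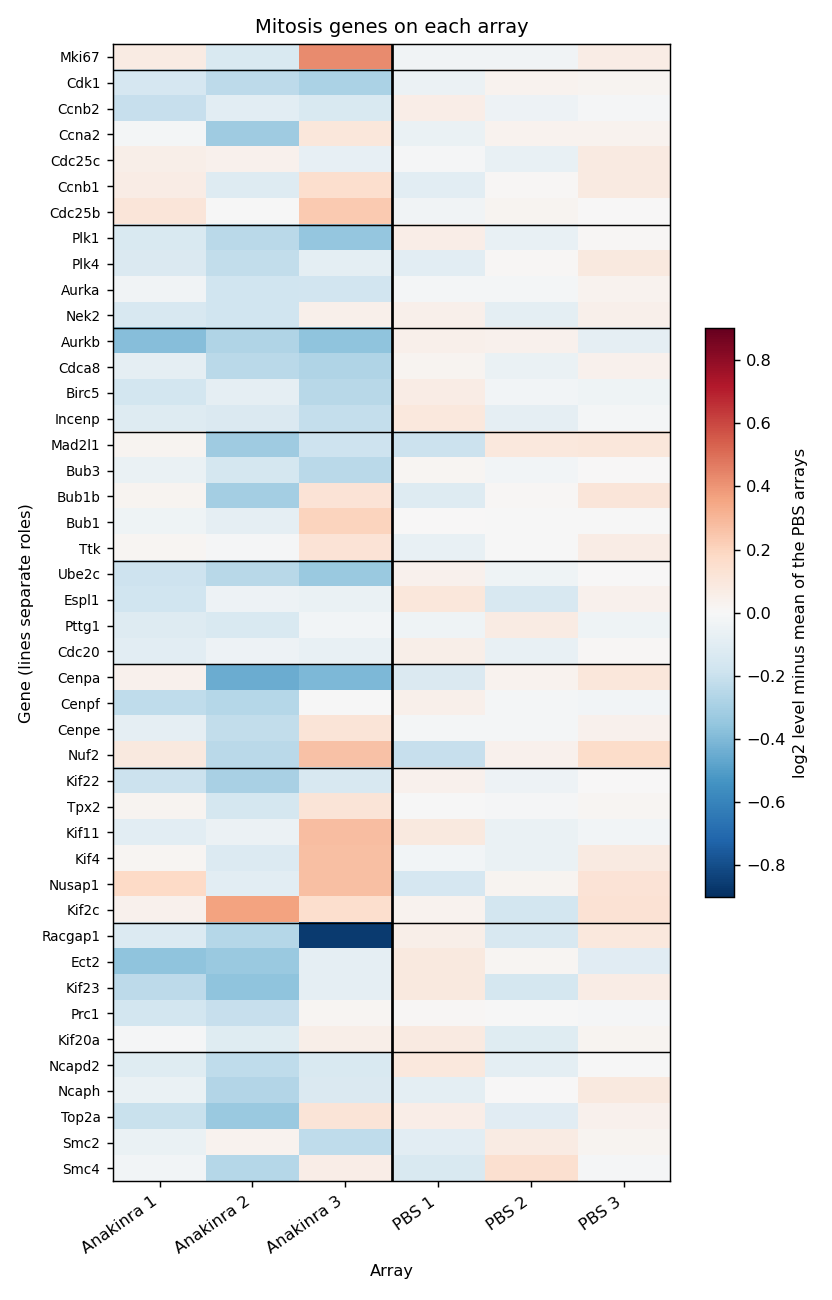
Each row is 1 of 44 mitosis genes and each column 1 array, Anakinra left and PBS right; colour is the log2 level minus the mean of the 3 PBS arrays, and lines separate the roles. The passenger complex genes are blue on all 3 Anakinra arrays, while Anakinra 2 is blue and Anakinra 3 red in several motor and kinetochore genes.

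Other lists of cell cycle genes were set beside these. Of 69 other mitosis genes, 0 passed, and the median was -0.10. A negative change was found in 47 of the 69, or 68.1%, against 47.7% of all genes. Anakinra values lay below all PBS values in 20 genes, or 29.0%, against 13.8% of all genes. They lay above in 1, or 1.45%, against 12.5% of all genes. The lowest p-values there belonged to the checkpoint ATPase gene Trip13 at -0.29 ± 0.08, the Cdk1 adaptor gene Cks1b at -0.26 ± 0.07 and the inhibitory kinase gene Pkmyt1 at -0.40 ± 0.12 (limma adjusted p = 0.160, 0.187 and 0.207). Of 35 genes of DNA replication, which act in the S phase before mitosis, 0 were higher and 1 fell. That gene was Orc1, of the origin recognition complex, which had -1.44, -1.46 and -1.43 in Anakinra, against -0.98, -1.05 and -0.92 in PBS, a change of -0.46 ± 0.06 (limma adjusted p = 0.0392). In the replication list 33 of 35 were negative, or 94.3%, against 47.7% of all genes, with a median of -0.21. Anakinra values lay below all PBS values in 25 of its genes, or 71.4%, against 13.8% of all genes. Whether the replication and mitosis lists differed was not tested. An E2F-like word (TTTCGCGC, TTTGGCGC, TTTCCCGC or TTTGGCGG) was found in 35.7% of the 28 replication genes with a window. Such a word stood in 16.4% of the 55 other mitosis genes with a window. Of the mitosis genes 5.41% had one, and of all tested genes 4.10%. A CHR form was found in 60.0% of those 55 genes and in 17.9% of the replication genes, and a CCAAT box in 63.6% and 64.3%. Of 15 tested cell cycle inhibitors and repressor genes 0 passed, with a median of 0.01; Rbl2, a member of the retinoblastoma family, had the smallest p, at 0.31 ± 0.11 (limma adjusted p = 0.278).

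**Figure D5:**
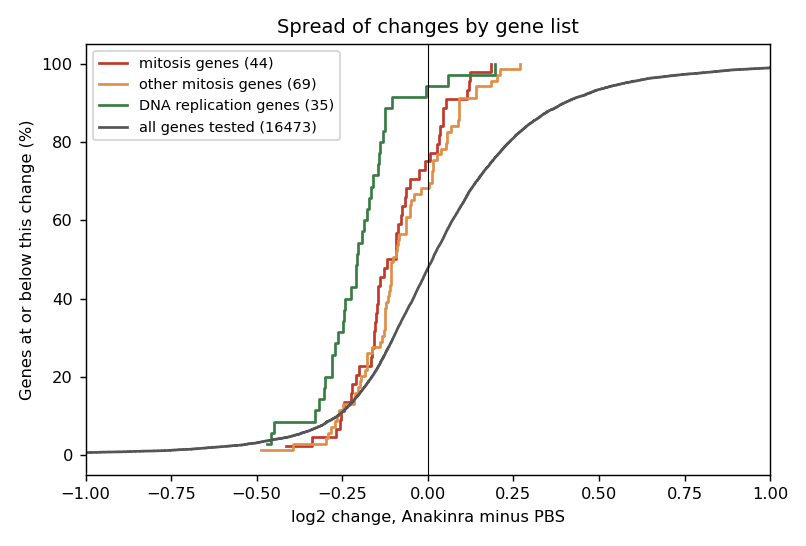
Cumulative share of genes (%) against log2 change, Anakinra minus PBS, with the number of genes of each list in brackets; the horizontal axis stops at -1 and 1, beyond which only genes of the whole set lie. The 2 mitosis lists run close together, with medians of -0.11 and -0.10, left of all genes and right of the replication genes.

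All 8 basal and all 10 suprabasal keratinocyte markers were well above background on every array. So were all 10 fibroblast markers and 8 of 9 melanocyte markers, so that detection alone does not tell the cell type. The summed signals given below were highest for the keratinocyte markers. Of the suprabasal markers 7 rose, with Krt1 at 2.35 ± 0.19 (limma adjusted p = 0.0111), and their summed signal, in units of the array's 75th percentile, was 758 to 841 in Anakinra, against 566 to 609 in PBS. Of the basal markers 0 passed, with sums of 1030 to 1131 in Anakinra, against 1086 to 1230 in PBS. Krt5 and Krt14, at -0.14 and -0.04, had the largest signals in these sums. A positive change was found in 4 of the 8 basal markers, and the median was 0.02. Fibroblasts can divide in such cultures too, and 2 of 10 fibroblast markers rose, Lum at 1.43 ± 0.15 and Col3a1 at 0.95 ± 0.13 (limma adjusted p = 0.0199 and 0.0400). Dcn, another fibroblast marker, was at -0.38 ± 0.07 (limma adjusted p = 0.0700), with all Anakinra values below all PBS values. The 10 markers had sums of 13.1 to 15.4 in Anakinra, against 9.81 to 11.9 in PBS. The sums of 9 melanocyte markers were 106 to 115 in Anakinra, against 91.5 to 110.0 in PBS, and 0 passed. All 9 had a positive change, with a median of 0.22, and in 5 of them, or 55.6%, all Anakinra values lay above all PBS values, against 12.5% of all genes. Of the immune markers 4 of 9 were bright enough to be tested and of the endothelial markers 3 of 5, and 0 passed in each. Their sums were 1.90 to 2.28 and 1.61 to 1.91 in Anakinra, against 1.81 to 2.24 and 2.00 to 2.12 in PBS. Ptprc, which marks all leukocytes, was too dim to be tested. The part of differentiation or of these other cells in the mitosis values was not tested.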

How the data were processed

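Total RNA from 6 keratinocyte cultures was hybridised to 6 one-colour Agilent arrays. Groups and replicate numbers came from the sample titles. Per the file headers, the arrays were read with Agilent Feature Extraction 9.5.3.1, and the deposited processed intensity was background-subtracted within each array. Each column of the authors' deposited log2 value table equalled the log2 processed intensity plus 1 constant, to within 0.001. That settles the scale and direction of the table. How the authors set the constants is not stated, but the mean of the unlogged values was 3314.3 in every column. Column medians were 5.74, 7.00 and 6.21 in Anakinra and 5.77, 5.83 and 6.22 in PBS.

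Log2 processed intensity minus the array's 75th percentile was used. Control and outlier spots were left out and spots of a probe averaged. A probe passed where all arrays of at least 1 group had it well above background, and the brightest passing probe stood for its gene. No spot was saturated. limma 3.58.1 under R 4.3.3 fitted 16473 genes with lmFit and eBayes, two-sided, with Benjamini-Hochberg adjustment and a threshold of 0.05, and was tested on simulated data. Changes are given ± SE. Precision is set by 3 arrays per group. The genes and lists were chosen with earlier results of these data known. Values on every array are given for the 12 mitosis genes with the smallest p, the 3 highest and 3 lowest changes, Mki67, Top2a, Ccnb1 and Cdk1, and from other lists up to 3 genes with the smallest p were eligible for naming. Same-numbered cultures deviated from their group means with correlations of 0.41, -0.49 and -0.21. Cultures of unlike number had correlations from -0.67 to 0.70. These values gave no sign of a pairing by number but cannot exclude one, and the labels do not say.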

Additional observations from a re-analysis of the deposited data

How the results depend on the processing

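No mitosis gene passed under 18 of 19 alternatives; with a prior spread that followed the signal level 1 did, Aurkb (adjusted p = 0.0376). The median change of the mitosis genes was -0.44 with per-array medians and between -0.14 and -0.08 with 1 sample left out. Of 19 mitosis genes followed through the alternatives, 13 kept their sign throughout. Some alternatives gave no test of the sign. The changes of all 19 did not move with no filter on dim probes or with only probes above background on all arrays. Nor did they move with the replicate number as a block or with the prior spread that followed the signal level. Many of these genes were also chosen for a small p in the same data, so the count is no independent measure of stability. With per-array medians Kif2c was at -0.15, Mki67 at -0.21, Nusap1 at -0.21 and Ccnb1 at -0.30, as the whole scale moved down. With the mean of passing probes Cdk1 was at 0.087 and Bub3 at 0.16, where dim probes entered. With 1 sample left out, Ccnb1 ran from -0.023 without Anakinra 3 to 0.108 without Anakinra 2, and was at -0.013 without PBS 1. Mki67 ran from -0.031 without Anakinra 3 to 0.251 without Anakinra 2.

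Over all genes, 160 were higher and 132 lower. The counts were 8 and 49 with per-array medians, 7 and 29 with no filter on dim probes, 338 and 241 with only probes above background on all arrays, 23 and 41 with the slide as a block, 0 and 0 within each slide, and 418 and 376 with the signal-dependent prior. With the replicate number as a block, which may or may not match a pairing, they were 0 and 0, and Aurkb had a limma adjusted p of 0.388. With 1 sample left out they ran from 1 to 97 and from 7 to 137, with 1 higher without PBS 1 or PBS 2. Leaving out any sample moved both counts by over 1.5 times, except the count of lower genes without Anakinra 2, at 137. The causes were not tested. Precision is limited by 3 arrays per group.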
